A study of Mus musculus with 19 samples.

Results

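The livers of Gramd1c-/- mice that ate a high cholesterol diet were compared with the livers of Gramd1c-/- mice that ate a low cholesterol diet. Every mouse whose title names the knockout genotype was taken, which gave 9 of the 19 mice sequenced, 4 on low cholesterol and 5 on high cholesterol. All 9 were females of the line C57BL/6N-Atm1Brd Gramd1ctm1a(KOMP)Wtsi/JMmucd and carried 2 copies of a knockout-first allele of Gramd1c, in which an inserted lacZ reporter cassette disrupts the gene in the whole body. They were bred from heterozygous parents together with wild type littermates. From 8 weeks of age they ate a synthetic diet with 0.02% or 0.2% cholesterol by weight for 4 weeks, and RNA was taken from saline-perfused liver, 1 library per mouse with no pooling. The 10 Gramd1c+/+ mice of the series, 5 on each diet, serve for comparison with the response of Gramd1c-/- mice. They were also part of the statistical fit, so they shaped its filter on low counts, its scaling and its estimate of the spread. Gramd1c encodes Aster-C, one of the Aster proteins, which sit in the endoplasmic reticulum and carry cholesterol to it from the plasma membrane.

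Hepatocytes make cholesterol from acetyl-CoA. The path runs through mevalonate, the isoprenoids and squalene to lanosterol, and from there over a series of sterols to cholesterol. When sterols are scarce in the membrane of the endoplasmic reticulum, Scap escorts the precursor of SREBP2 to the Golgi, where it is cleaved to a transcription factor that turns on the genes of this path and of cholesterol uptake. When sterols are plentiful, Insig proteins hold Scap and the precursor back, so that the liver of an animal that eats cholesterol is known to make less of these mRNAs. Oxysterols, in turn, activate the nuclear receptor LXR, which is known in mouse liver for the genes of sterol export and of bile acid synthesis.

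Total counts were 27172732 to 30939857 per mouse on low and 27149972 to 33961735 on high cholesterol, and they did not separate the diets (two-sided exact permutation test, p = 0.508). The sample labels give gonadal adipose tissue as the tissue and liver as the cell type. Albumin took 6.02 to 8.997% of all counts, while 4 of 7 adipocyte markers, Adipoq, Plin1, Lep and Retn, did not pass the filter on low counts. The other 3 passed and were not called for diet, with group means on low and high cholesterol of 2.80 and 3.97 TPM for Fabp4, of 0.852 and 1.15 TPM for Cfd, and of 1477 and 1564 TPM for Car3, a carbonic anhydrase that mouse liver is also known to make. The share of counts from albumin was 8.37% ± 0.690 (SD, n = 4) on low and 6.51% ± 0.416 (SD, n = 5) on high cholesterol, with no overlap (exact permutation p = 0.0159), and all 8 hepatocyte markers had a log2 fold change below 0 with none called. Among the mice on high cholesterol, mouse 5 lay at 87.0 on the first principal component of the 9 knockout mice, against -26.6 to 3.45 for the other 8. Mouse 3 had more mRNA of bile duct markers (a summed 267 TPM over 8 genes, against 64.6 to 98.0 TPM in the other 8 mice), and mouse 4 more of Kupffer cell and macrophage markers (1735 TPM over 18 genes, against 609 to 906 TPM). TPM, a unit of transcript abundance, is the count divided by the gene's length and scaled to 1 common total per mouse, so that levels of different genes can be set side by side.

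On the high cholesterol diet a small group of 44 genes, not all of them coding for protein, was lower, and 20 of them belonged to the path of cholesterol synthesis. edgeR tested 15016 genes by its quasi-likelihood method, and 49 (0.326%) passed a Benjamini-Hochberg adjusted p of 0.05, and these are the genes referred to here as called. On high cholesterol 44 of them (0.293% of the genes tested) were lower and 5 (0.0333%) higher. The median log2 fold change over all genes tested was 0.02, and 52.6% of them lay above 0. In all 49 the TPM of the mice on the 2 diets did not overlap, which held for 3.46% of the genes tested (0.773% lower and 2.68% higher on high cholesterol). The fall was at least 1 on the log2 scale in 38 of the 44 lower genes and at least 2 in 17. Of the 44, 29 belonged to the lists of cholesterol synthesis, SREBP processing or other sterol-suppressed genes, 3 more to lists of fatty acid synthesis, and 12 to none of the 30 gene lists described. Every log2 fold change below is that of the edgeR fit, high minus low cholesterol, with its standard error (SE), and every adjusted p is from this test. In whole liver, fewer cells of a type and less RNA per cell cannot be told apart. Without mouse 5 on high cholesterol 45 genes were called, of which 41 were among the 49. Without mice 3 and 5 on high cholesterol and a wild type mouse with adrenal transcripts, 38 were called, of which 36 were among the 49. With only the 9 Gramd1c-/- mice in the fit 37 were called, 35 lower and 2 higher, of which 36 were among the 49.

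The list of cholesterol synthesis held 23 genes, all of them tested. Of these 20 fell, against 0.293% of all genes tested, and none rose. In 22 of the 23 the diets did not overlap in the lower direction, against 0.773% of all genes tested, and the list had a median log2 fold change of -1.96, against 0.02 over all genes. Summed over the 23 genes, the level was 2174, 2685, 2996 and 2397 TPM in mice 1 to 4 on low cholesterol and 807, 969, 1075, 985 and 614 TPM in mice 1 to 5 on high cholesterol. The highest mouse on high cholesterol stood below the lowest mouse on low cholesterol. The mean on high cholesterol was 34.7% of that on low cholesterol, and 37.4% without mouse 5.

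**Figure D1:**
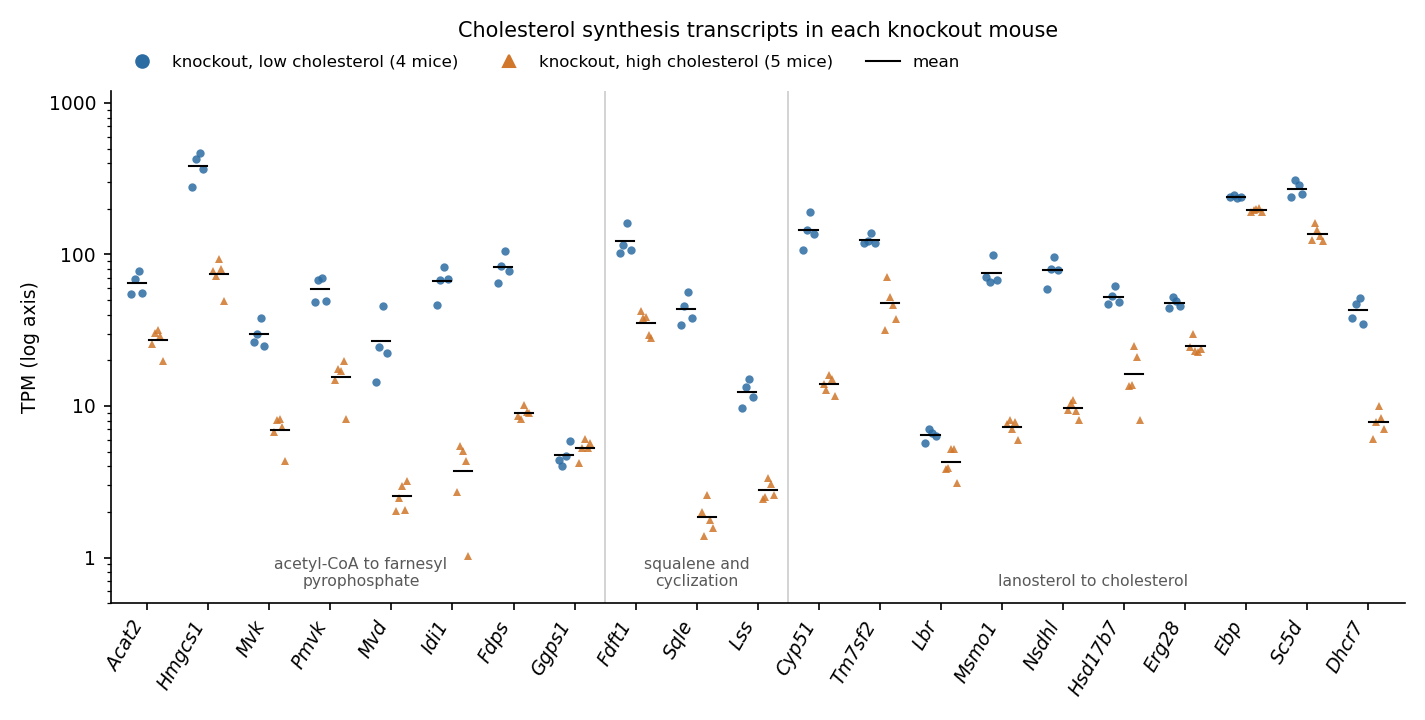
TPM (log axis) of 21 of the cholesterol synthesis genes in each Gramd1c-/- mouse, in the order of the path, with 1 point per mouse and the mean of each group as a bar; low cholesterol has 4 mice and high cholesterol 5. All of them but Ggps1 have the mice on high cholesterol below the mice on low cholesterol.

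The first steps turn acetyl-CoA into farnesyl pyrophosphate, and 8 of the 9 genes fell (median log2 fold change -2.15). Acat2, which joins acetyl-CoA units at the entry of the path, was at 54.9, 68.9, 77.5 and 56.1 TPM on low cholesterol and at 25.7, 30.5, 31.6, 29.2 and 19.8 TPM on high cholesterol. Its log2 fold change was -1.27 (SE 0.14, adjusted p = 1.4e-05). Hmgcs1, the HMG-CoA synthase of the cytosol, was at 278, 427, 467 and 368 TPM on low and at 78.4, 72.3, 93.3, 80 and 49.1 TPM on high cholesterol. The groups of both genes were well apart, and mouse 5 was the lowest on high cholesterol. Hmgcs1 fell by 2.404 on the log2 scale (SE 0.23, adjusted p = 2.16e-06).

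Mvk and Pmvk, which add the phosphates to mevalonate, had 23.2% and 26.4% of their mean TPM on low cholesterol left on high cholesterol. Mvk was at 26.6, 29.8, 38.2 and 24.9 TPM on low and at 6.74, 8.07, 8.17, 7.28 and 4.32 TPM on high cholesterol, a log2 fold change of -2.15 (SE 0.19). Mvd, which decarboxylates the product to isopentenyl pyrophosphate, was at 14.4, 24.4, 45.8 and 22.47 TPM on low and at 2.04, 2.46, 2.95, 2.06 and 3.19 TPM on high cholesterol. Mouse 3 was far above the other mice on low cholesterol, yet the lowest of them still stood well over the high cholesterol group. Mvd fell by 3.42 on the log2 scale (SE 0.32, adjusted p = 1.1e-06). Idi1, the isomerase of the isoprenoid units, was at 46.7, 67.4, 83.3 and 68.4 TPM on low and at 2.72, 5.46, 5.08, 4.31 and 1.03 TPM on high cholesterol. Idi1 (chr13:8885501-8892451, plus strand) fell by 4.21 on the log2 scale (SE 0.35, adjusted p = 2.67e-07), and by 3.98 without mouse 5, its lowest mouse. Fdps, which builds farnesyl pyrophosphate, went from 64.9 to 104.9 TPM on low cholesterol to 8.26 to 10.2 TPM on high cholesterol (log2 fold change -3.225, SE 0.22, adjusted p = 7.22e-09). Ggps1, which leads off the path to geranylgeranyl groups, was the one gene of these steps not called, with 4.04 to 5.88 TPM on low and 4.21 to 6.04 TPM on high cholesterol and a log2 fold change of 0.13 (SE 0.17, adjusted p = 0.748).

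All 3 genes from farnesyl pyrophosphate to lanosterol fell (median -2.18). Sqle, the squalene epoxidase that is a rate-limiting enzyme of the path, had the lowest share left of the 23 genes, 4.24% of its mean TPM on low cholesterol. Sqle (chr15:59315077-59331192, plus strand) was at 34.1, 46.0, 56.8 and 38.3 TPM on low and at 1.99, 1.38, 2.58, 1.76 and 1.56 TPM on high cholesterol. Its log2 fold change of -4.60 (SE 0.23, adjusted p = 5.07e-11) lay far outside the spread of either group. Fdft1, the squalene synthase, was at 102 to 162.5 TPM on low and at 28.0 to 42.5 TPM on high cholesterol and fell by 1.81 on the log2 scale (SE 0.18, adjusted p = 2.33e-06). Lss, which closes the rings of lanosterol, was at 9.67, 13.3, 15.03 and 11.48 TPM on low and at 2.45, 2.51, 3.37, 3.04 and 2.61 TPM on high cholesterol. The diets were apart by a log2 fold change of -2.18 (SE 0.14, adjusted p = 4.79e-09).

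From lanosterol to cholesterol 9 of 11 genes fell, and all 11 log2 fold changes were below 0 (median -1.41). Cyp51 (chr5:4081145-4104746, minus strand), the lanosterol demethylase, was at 107.5, 146, 191.5 and 136 TPM on low and at 14.1, 12.8, 16.0, 15.2 and 11.7 TPM on high cholesterol. The 5 mice on high cholesterol lay within a narrow range well below the other 4, at a log2 fold change of -3.41 (SE 0.17, adjusted p = 5.07e-11). Nsdhl, which works with Msmo1 and Hsd17b7 to take off the methyl groups at carbon 4, was at 59.0, 80.7, 95.7 and 78.8 TPM on low and at 9.43, 10.4, 10.99, 9.30 and 8.03 TPM on high cholesterol. Nsdhl fell by 3.05 on the log2 scale (SE 0.15, adjusted p = 5.07e-11), Msmo1 fell by 3.40 (SE 0.21) and Hsd17b7 fell by 1.76 (SE 0.21). Erg28, which is thought to hold that complex together, fell by 0.96 (SE 0.16, adjusted p = 0.00352).

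Of the enzymes nearer to cholesterol, Dhcr7, the 7-dehydrocholesterol reductase, was at 38.2, 47.3, 51.3 and 34.6 TPM on low and at 6.04, 7.86, 10.04, 8.39 and 7.09 TPM on high cholesterol (log2 fold change -2.48, SE 0.22, adjusted p = 7.3e-07). Sc5d, the lathosterol oxidase, had 50.7% of its mean TPM left (log2 fold change -1.002, SE 0.12, adjusted p = 3.45e-05). The 14-reductase reaction is shared by Tm7sf2 and Lbr, an inner nuclear membrane protein that also has a role in chromatin. Tm7sf2 was at 119 to 139 TPM on low and at 32.0, 71.0, 52.3, 46.7 and 37.6 TPM on high cholesterol and fell by 1.41 on the log2 scale (SE 0.21, adjusted p = 7.99e-04). Lbr, at 5.74 to 7.03 TPM on low and 3.10 to 5.23 TPM on high cholesterol, fell by 0.64 (SE 0.14, adjusted p = 0.0454), and this call was lost in 25 of 32 alternative settings, among them the leaving out of any 1 of 15 mice (adjusted p = 0.0502 to 0.241). Ebp, the sterol isomerase, was at 238 to 245 TPM on low and 190 to 203 TPM on high cholesterol and was not called (log2 fold change -0.32, SE 0.16, adjusted p = 0.454).

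The synthesis genes also gave an order among mice on the same diet. On low cholesterol, mouse 3 had the highest TPM in 18 of the 23 genes and mouse 1 the lowest in 18. On high cholesterol, mouse 3 was the highest in 13 genes and mouse 5 the lowest in 13. The 23 values of a mouse share its library, so these counts are a description.

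The promoters of the lower genes were searched for letters known from sterol-regulated genes. SREBP binds sterol regulatory elements, and the factors NF-Y (at CCAAT) and Sp1 (at GGGCGG) are known to bind beside it. In the RefSeq promoters of build GRCm38.p6, the 250 bases before the start were searched on both strands for TCACNCCAC, a core of the element, and for CCAAT and GGGCGG, and a base could count in more than 1 match. Of the 44 lower genes 31 had an entry, and of these 25 (80.6%) held CCAAT, against 40.2% of 10969 tested genes with an entry. GGGCGG stood in 27 (87.1%, against 61% of all) and TCACNCCAC in 2 (6.45%, against 1.34%). The 2 with TCACNCCAC were Hmgcs1 and Aldoc, a gene outside the synthesis list described below. Mvk shares its start region, head to head, with Mmab, an adenosyltransferase of cobalamin metabolism that also fell, and the 208 bases shown between the start of Mvk and the gene of Mmab as the files give it held 5 CCAAT matches. Both genes share these matches, yet each was counted among the 25. These sequences are shown because each joins a called gene to the letters searched. Capitals mark matches on the plus strand (TCACNCCAC, CCAAT) or the minus strand (ATTGG), and GGGCGG is not marked.
Hmgcs1, chr13:119690101-119690350, plus strand: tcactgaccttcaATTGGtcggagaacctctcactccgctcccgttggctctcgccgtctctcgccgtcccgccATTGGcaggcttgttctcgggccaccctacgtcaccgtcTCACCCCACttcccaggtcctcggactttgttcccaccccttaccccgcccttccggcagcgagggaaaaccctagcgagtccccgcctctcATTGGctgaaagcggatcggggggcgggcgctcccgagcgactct
Aldoc, chr11:78322983-78323012, plus strand: ggcagaggaaTCACTCCACctcactactcc
Mvk and Mmab, chr5:114444061-114444268, plus strand of Mvk: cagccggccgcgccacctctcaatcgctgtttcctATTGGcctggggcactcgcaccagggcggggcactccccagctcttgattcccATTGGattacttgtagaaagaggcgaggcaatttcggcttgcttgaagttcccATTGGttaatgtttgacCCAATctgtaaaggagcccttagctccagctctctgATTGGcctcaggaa
In Hmgcs1 the TCACNCCAC match began 137 bases before the RefSeq start, between CCAAT matches at 176 and 45 bases, and a further CCAAT match lay at 237 bases. In Aldoc the match lay 80 bases before the RefSeq start, which is 25 bases into the gene as the files give it. A match is a run of letters and was not tested for binding.

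Outside the enzymes, 2 of 10 tested genes of SREBP processing and sterol sensing fell, against 0.293% of all genes tested (median of the list -0.18). Srebf2, which encodes SREBP2 itself, was at 30.7, 39.7, 38.0 and 34.8 TPM on low and at 14.2, 12.5, 23.1, 19.8 and 8.04 TPM on high cholesterol. Insig1, which retains Scap in the endoplasmic reticulum, was at 168, 200, 242 and 204 TPM on low and at 61.1, 101, 83.1, 112 and 74.0 TPM on high cholesterol. Neither gene overlapped between the diets. Srebf2 fell by 1.27 on the log2 scale (SE 0.23, adjusted p = 0.00957) and Insig1 fell by 1.27 (SE 0.17, adjusted p = 3.01e-04). Srebf1, which encodes the SREBP forms known for fatty acid synthesis, was at 75.8 to 118 TPM on low and 68.2 to 156 TPM on high cholesterol (log2 fold change 0.20, SE 0.22, adjusted p = 0.692), and Scap had a log2 fold change of -0.59 (SE 0.16, adjusted p = 0.233). Without mouse 2 on low cholesterol the adjusted p of Srebf2 was 0.0516.

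Of 17 tested genes in a list of other genes known to be lowered by sterols, 7 fell, against 0.293% of all genes tested. Below 0 lay 16 of the 17 log2 fold changes, against 7114 of all 15016, and the median was -0.59. Rdh11, a retinol dehydrogenase of the endoplasmic reticulum, was at 54.5, 75.8, 79.8 and 57.3 TPM on low and at 14.7, 14.7, 18.3, 17.0 and 11.1 TPM on high cholesterol. Stard4, a sterol transfer protein of the cytosol, was at 46.3, 54.1, 61.5 and 61.7 TPM on low and at 17.2, 18.6, 27.7, 18.97 and 19.8 TPM on high cholesterol. Mmab was at 13.4, 14.7, 18.5 and 15.8 TPM on low and at 7.55, 6.50, 8.77, 7.60 and 7.17 TPM on high cholesterol. All 3 genes had every mouse on high cholesterol below every mouse on low cholesterol. Rdh11 fell by 2.18 on the log2 scale (SE 0.19, adjusted p = 3.69e-07), Stard4 fell by 1.49 (SE 0.18, adjusted p = 3.78e-05) and Mmab fell by 1.08 (SE 0.13, adjusted p = 3.84e-05). Tmem97, a sterol-binding protein of the endoplasmic reticulum, was at 124 to 155 TPM on low and 76.0 to 91.7 TPM on high cholesterol and was not called (log2 fold change -0.68, SE 0.16, adjusted p = 0.093).

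No gene of the list of LXR targets and sterol export passed the test. None of the 14 was called, 8 log2 fold changes were above 0, and the median was 0.02. With 0.326% of all genes tested called, a list this short would often hold none. Abcg5, which forms the canalicular sterol exporter with Abcg8, was at 102, 93.0, 69.2 and 91.8 TPM on low and at 98.6, 113, 120, 147 and 172 TPM on high cholesterol, and the groups overlapped at 1 mouse (log2 fold change 0.53, SE 0.18, adjusted p = 0.337). Abca1, the exporter of cholesterol to apolipoprotein A1, had a log2 fold change of -0.29 (SE 0.20, adjusted p = 0.56). Pltp, the phospholipid transfer protein, was at 48.7, 43.9, 109 and 38.2 TPM on low and at 22.2, 24.0, 31.3, 38.8 and 16.6 TPM on high cholesterol. Mouse 3 on low cholesterol stood apart, the groups overlapped slightly, and the gene was not called (log2 fold change -1.23, SE 0.31, adjusted p = 0.162).

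None of 16 tested genes of bile acid synthesis and none of 16 of bile acid transport and the bile acid receptor FXR was called (medians -0.03 and -0.26). Here too, 0.326% of all genes tested were called, so that lists this short would often hold none. Cyp7a1, the rate-limiting enzyme of bile acid synthesis, was at 64.9, 41.5, 106.9 and 20.7 TPM on low and at 104, 54.0, 74.3, 17.9 and 54.5 TPM on high cholesterol. Both diets covered nearly the same range, and the log2 fold change was 0.04 with an SE of 0.57 (adjusted p = 0.979). Cyp8b1, which sets the share of cholic acid, was at 339, 394, 362 and 299.5 TPM on low and at 282, 214, 149.9, 178 and 145 TPM on high cholesterol. The groups did not overlap, but Cyp8b1 was not called (log2 fold change -0.85, SE 0.31, adjusted p = 0.354).

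Genes of fatty acid synthesis fell in part. In the list of 14 genes 4 fell (Acss2, Acly, Fasn and Slc25a1), against 0.293% of all genes tested. In 5 the diets did not overlap in the lower direction, against 0.773% of all genes tested. Below 0 lay 12 log2 fold changes, and the median was -0.73. Acss2 and Slc25a1 also belong to the list of other sterol-suppressed genes and were counted among those that fell there. The products of the 4 genes make cytosolic acetyl-CoA from acetate (Acss2) or from citrate (Acly), which Slc25a1 carries out of the mitochondrion, and join it to palmitate (Fasn). Acss2 was at 45.1, 70.3, 40.1 and 39.9 TPM on low and at 13.2, 19.9, 22.8, 17.8 and 10.7 TPM on high cholesterol. Fasn was at 69.4, 106, 93.0 and 77.6 TPM on low and at 18.7, 21.3, 51.9, 42.6 and 31.1 TPM on high cholesterol. Acly was at 109, 152, 118 and 92.2 TPM on low and at 30.1, 47.5, 75.0, 66.1 and 20.04 TPM on high cholesterol. None of the 3 overlapped, and mice 1 and 5 on high cholesterol were low for Acss2 and Acly, mice 1 and 2 for Fasn. Acss2 fell by 1.58 on the log2 scale (SE 0.26, adjusted p = 0.00326), Fasn fell by 1.45 (SE 0.31, adjusted p = 0.0454), Acly fell by 1.38 (SE 0.30, adjusted p = 0.0473) and Slc25a1 fell by 0.72 (SE 0.14, adjusted p = 0.0218). Leaving out 1 mouse ended the call of Fasn for 13 of the 19 mice (adjusted p = 0.0508 to 0.217), of Acly for 12 (adjusted p = 0.0618 to 0.259) and of Slc25a1 for mice 1 to 3 on low and 1, 3 and 5 on high cholesterol (adjusted p = 0.0671 to 0.12). With mice 3 and 5 on high cholesterol and 1 wild type mouse left out, 1 gene of the list was called.

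**Figure D2:**
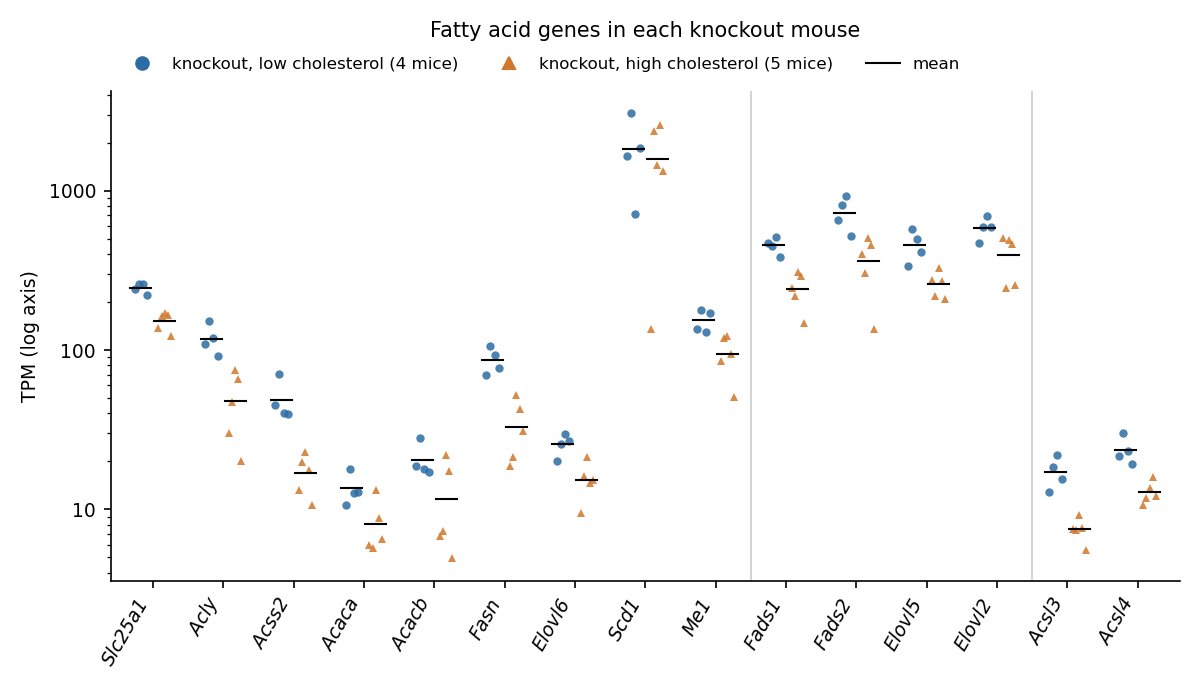
TPM (log axis) of genes of fatty acid synthesis (left), of polyunsaturated fatty acids (middle) and of 2 acyl-CoA synthetases (right) in each Gramd1c-/- mouse, with the mean of each group as a bar (4 mice on low, 5 on high cholesterol). Scd1 and Acacb overlap between the diets, while Fasn, Acly, Acsl3 and Acsl4 do not.

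Scd1, the stearoyl-CoA desaturase and the most abundant mRNA of that list, was at 1654, 3062, 712 and 1846 TPM on low and at 136, 2370, 1446, 2575 and 1331 TPM on high cholesterol. Its groups overlapped widely, and its log2 fold change was -0.25 with an SE of 0.60 (adjusted p = 0.866). Acaca and Acacb, the acetyl-CoA carboxylases, had log2 fold changes of -0.81 (SE 0.26, adjusted p = 0.315) and -0.90 (SE 0.37, adjusted p = 0.387). Elovl6, which lengthens palmitate, was at 20.2 to 29.6 TPM on low and 9.52 to 21.2 TPM on high cholesterol (log2 fold change -0.78, SE 0.18, adjusted p = 0.0926). Me1, the malic enzyme that supplies NADPH, was at 129 to 179 TPM on low and 50.4 to 123 TPM on high cholesterol without overlap (log2 fold change -0.74, SE 0.20, adjusted p = 0.22).

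All 7 genes of polyunsaturated fatty acid synthesis had a log2 fold change below 0 (median -0.84), as did 7114 of all 15016 genes tested. Of the 7, 1 was called, where 0.293% of all genes tested were called lower. Fads1, the delta-5 desaturase, was at 467, 447, 515 and 384 TPM on low and at 247, 219, 309, 291 and 148 TPM on high cholesterol. The lowest mouse on low cholesterol stood above the highest on high cholesterol, and the log2 fold change was -0.95 (SE 0.19, adjusted p = 0.0311). This call was lost when mouse 1, 2 or 3 on low or mouse 1, 2, 3 or 5 on high cholesterol was left out (adjusted p = 0.0568 to 0.171). Fads2, the delta-6 desaturase beside it, had a log2 fold change of -1.08 (SE 0.27, adjusted p = 0.167), Elovl5 had one of -0.84 (SE 0.22, adjusted p = 0.174) and Elovl2 had one of -0.61 (SE 0.21, adjusted p = 0.332).

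Acsl3 and Acsl4, which activate long-chain fatty acids with coenzyme A, belonged to none of the lists. Acsl3 was at 12.9, 18.6, 21.9 and 15.4 TPM on low and at 7.51, 7.47, 9.27, 7.64 and 5.52 TPM on high cholesterol. Acsl4 was at 21.7, 30.3, 23.3 and 19.4 TPM on low and at 10.7, 11.8, 13.6, 16.0 and 12.1 TPM on high cholesterol. Neither overlapped between the diets, and Acsl3 fell by 1.23 on the log2 scale (SE 0.15, adjusted p = 7.37e-05) and Acsl4 fell by 0.92 (SE 0.16, adjusted p = 0.00444).

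**Figure D3:**
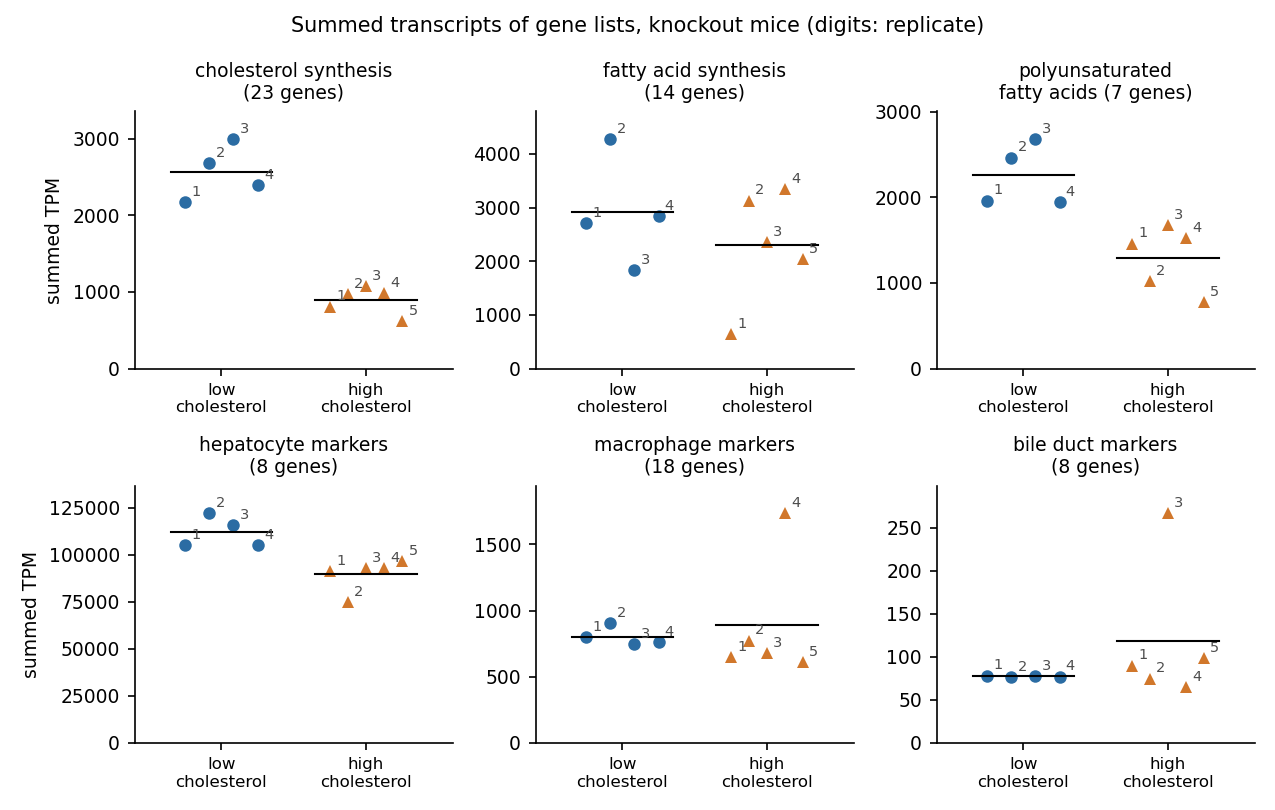
Summed TPM of 3 lipid gene lists (top) and of markers of 3 liver cell types (bottom) in each Gramd1c-/- mouse, with the replicate number beside each point and the group mean as a bar (4 mice on low, 5 on high cholesterol). The sums of cholesterol synthesis and of the hepatocyte markers do not overlap between the diets. Taken singly, 1 of the 8 hepatocyte markers does not overlap, and none was called. Single mice stand apart for bile duct (mouse 3) and macrophage markers (mouse 4).

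Of the lower genes in no list, Aldoc (chr11:78322968-78327781, plus strand), an aldolase known best from brain, changed most among those that code for protein. Aldoc was at 9.15, 9.27, 9.94 and 8.70 TPM on low and at 1.76, 3.23, 2.998, 1.78 and 1.84 TPM on high cholesterol. Mice on low cholesterol lay close together and far above those on high cholesterol, and the log2 fold change was -2.03 (SE 0.19, adjusted p = 1.21e-06). Adgrf1, an adhesion G protein-coupled receptor, was at 5.71, 10.6, 6.51 and 5.68 TPM on low and at 2.08, 1.66, 2.29, 3.90 and 3.26 TPM on high cholesterol (log2 fold change -1.46, SE 0.28, adjusted p = 0.0157). Fmn1, a formin that builds actin filaments, was at 1.19 to 1.38 TPM on low and 0.359 to 0.7104 TPM on high cholesterol (log2 fold change -1.33, SE 0.23, adjusted p = 0.00482). Sgsm1, a regulator of small G proteins, was at 0.879 to 1.55 TPM on low and 0.3995 to 0.745 TPM on high cholesterol (log2 fold change -1.24, SE 0.23, adjusted p = 0.00979). Tmco6, named only for its transmembrane and coiled-coil domains, fell by 0.73 on the log2 scale (SE 0.14, adjusted p = 0.021). The calls ended without mouse 2 on low or mouse 1, 2 or 3 on high cholesterol for Adgrf1 (adjusted p = 0.0612 to 0.122), without mouse 2 on low cholesterol for Sgsm1 (0.0844), and without any mouse on low or mouse 1 or 3 on high cholesterol for Tmco6 (0.0559 to 0.0992).

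The lower genes also held 3 processed pseudogenes, copies of mRNAs of the path put back into the genome. Gm13502 matched an Idi1 transcript with 100% identity over 684 bases, Gm3571 a Fdps transcript with 98.87% over 1062 bases, and Gm6781 a Fdft1 transcript with 97.44% over 1249 bases. Reads of the parent and of the copy could be swapped at such identity, so these 3 calls are uncertain. Gm13502 had 32, 43, 49 and 38 counts on low and 0, 2, 2, 3 and 0 counts on high cholesterol, and Gm3571 had 190 counts in all on low and 17 on high cholesterol. Gm6781 had 63 counts in all on low and 10 on high cholesterol. Beside called genes lay 2 transcripts that do not code for protein, Gm43031 (log2 fold change -1.95, SE 0.37, adjusted p = 0.016), within an intron of Akap9 and 5688 bases from Cyp51, and Gm36435 (log2 fold change -1.66, SE 0.32, adjusted p = 0.0175), 10508 bases from Sc5d on the same strand. Of these, Gm6781 was not called without mouse 3 on low cholesterol (adjusted p = 0.106), Gm43031 without mouse 3 or 4 on low or 2 or 4 on high cholesterol (0.0524 to 0.106), and Gm36435 without mouse 2 or 3 on low or 5 on high cholesterol (0.0563 to 0.113). Akap9 itself, which overlaps Cyp51 on the other strand, had a log2 fold change of -0.02 (adjusted p = 0.965). Fdft1, Acsl3, Tm7sf2, Acss2 and Tmco6 also overlap a neighbour, and none of these neighbours was called. The strand setting of the counts is not known here, so reads in the shared bases cannot be assigned.

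On high cholesterol 5 genes rose, none of them in a list. Adam11 (chr11:102761439-102780262, plus strand), a membrane protein of the ADAM family without protease activity that is known from neurons, was at 1.399, 1.54, 0.828 and 1.56 TPM on low and at 5.25, 6.04, 11.3, 9.93 and 21.6 TPM on high cholesterol. Every mouse on high cholesterol was above every mouse on low cholesterol, with mouse 5 the highest. The rise was 8.07-fold (log2 fold change 3.01, SE 0.42, adjusted p = 4.00e-04), and the log2 fold change was 2.52 without mouse 5. Inmt (chr6:55170626-55175043, minus strand), an indolethylamine and thioether methyltransferase, was at 572, 394, 409.5 and 522 TPM on low and at 896, 1585, 992, 949 and 1343 TPM on high cholesterol. The groups were clearly apart, and Inmt rose by 1.28 on the log2 scale (SE 0.24, adjusted p = 0.0131). Tpm2 (chr4:43514711-43523765, minus strand), a tropomyosin that binds actin, was at 5.18, 2.67, 3.87 and 4.71 TPM on low and at 10.2, 16.5, 26.3, 7.52 and 7.23 TPM on high cholesterol. Its highest value came from mouse 3, the mouse with bile duct transcripts. The log2 fold change of Tpm2 was 1.65 (SE 0.30, adjusted p = 0.00827), and 1.38 (adjusted p = 0.0161) without mouse 3. Leaving out mouse 2 on low cholesterol ended the calls of Tpm2 (adjusted p = 0.0611) and Inmt (0.0992), and leaving out mouse 3 on low cholesterol that of Inmt (0.0896). With only the 9 Gramd1c-/- mice in the fit, Adam11 was the 1 gene of the 5 still called (adjusted p = 0.0128), and the calls of Inmt (0.0704) and Tpm2 (0.205) were lost.

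The other 2 higher genes are long non-coding RNAs. 1700080G11Rik was at 8.43, 8.53, 10.2 and 10.8 TPM on low and at 28.9, 36.5, 25.8, 17.7 and 94.1 TPM on high cholesterol, so that mouse 5 was far above the rest. Its log2 fold change was 2.12 (SE 0.41, adjusted p = 0.0166), and 1.49 (adjusted p = 0.011) without mouse 5. Gm44202 had 0, 0, 1 and 0 counts on low and 11, 13, 6, 7 and 15 counts on high cholesterol. The ratio of its summed counts, scaled to the library totals, was 40.0 with a 95% exact counting interval of 6.87 to 1610, and the adjusted p was 0.00839. Leaving out any 1 mouse on low cholesterol ended the call of 1700080G11Rik (adjusted p = 0.0634 to 0.101), and leaving out mouse 1 or 2 on low cholesterol that of Gm44202 (0.0517 and 0.053), which did not pass the filter on low counts without mouse 1, 2 or 5 on high cholesterol or wild type mouse 1 on high cholesterol. With only the 9 Gramd1c-/- mice in the fit, 1700080G11Rik was not called (adjusted p = 0.289) and Gm44202 did not pass the filter.

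**Figure D4:**
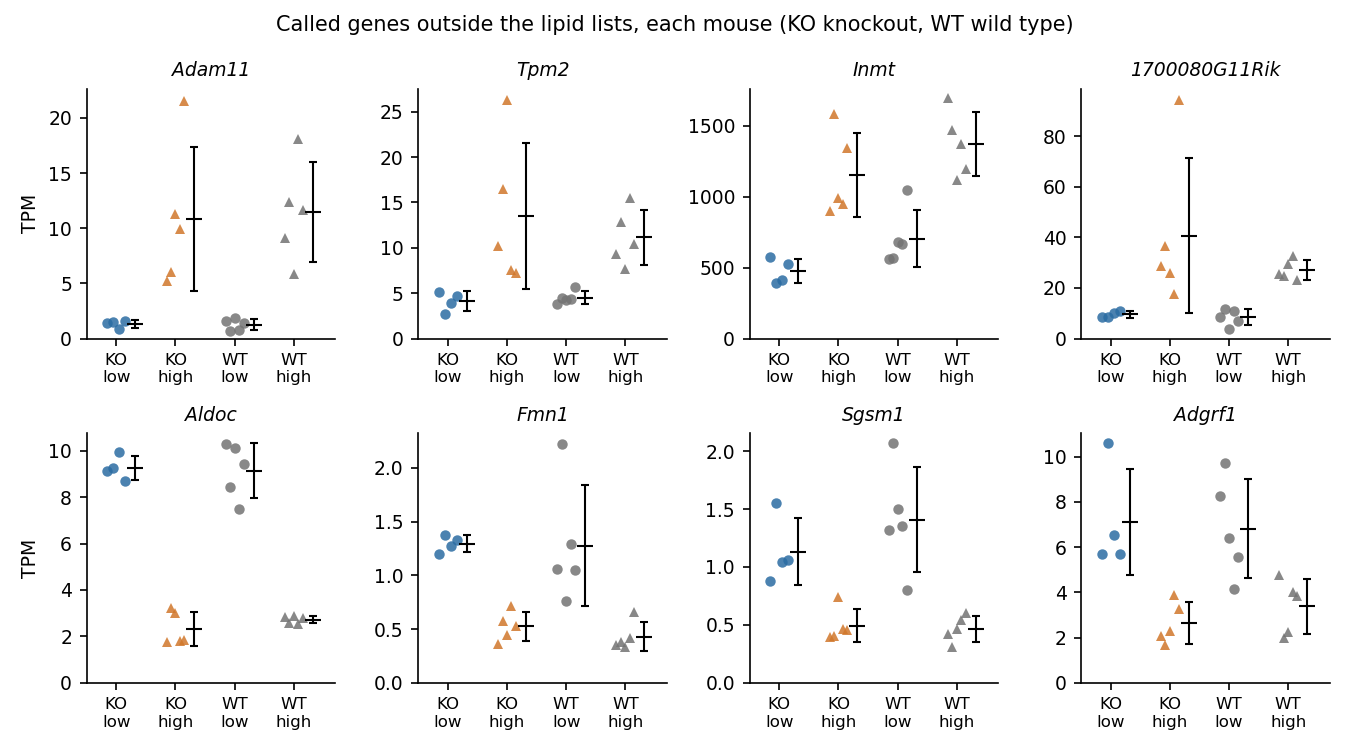
TPM of 8 called genes outside the lipid lists in each mouse, with the group mean and SD beside the points (Gramd1c-/- in colour, 4 low and 5 high; wild type in grey, 5 and 5). Adam11, Tpm2, Inmt and 1700080G11Rik are higher and Aldoc, Fmn1, Sgsm1 and Adgrf1 lower in all Gramd1c-/- mice on high cholesterol than in all on low cholesterol.

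The targeted gene and its relatives were not called for diet in Gramd1c-/- mice. Gramd1c was at 1.87, 2.04, 1.45 and 1.25 TPM on low and at 1.07, 1.58, 1.67, 1.27 and 3.61 TPM on high cholesterol, against group means of 12.2 and 10.7 TPM in wild type mice on low and high cholesterol. Each knockout mouse was thus below the wild type means, mouse 5 on high cholesterol had the most, and the log2 fold change by diet was 0.15 (SE 0.28, adjusted p = 0.828), turning to -0.30 without that mouse. Gramd1a, which encodes Aster-A, had a log2 fold change of 0.51 (SE 0.25, adjusted p = 0.442), and Gramd1b, which encodes Aster-B, one of 0.52 (SE 0.39, adjusted p = 0.579).

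In the remaining lists no gene was called, where 0.326% of all genes tested were. The 8 tested genes of the Cyp3a family, cytochromes P450 that oxidize bile acids and drugs, all had a log2 fold change above 0 (median 0.61). Cyp3a16, one of its female-biased members, was at 1.71, 1.76, 5.79 and 0.626 TPM on low and at 78.2, 66.4, 36.2, 8.58 and 0.125 TPM on high cholesterol. In 4 of the 5 mice on high cholesterol it was above every mouse on low cholesterol, and in mouse 5 it was the lowest of all (log2 fold change 3.94, SE 1.20, adjusted p = 0.286). Genes of the unfolded protein response were below 0 in 17 of 18, against 7114 of all 15016 genes tested. Their median was -0.33, and in wild type mice it was -0.42. The 25 tested PPAR-alpha targets had a median of 0.10. Gdf15, a stress-induced hormone, was at 6.97, 4.02, 4.56 and 8.44 TPM on low and at 12.4, 37.6, 19.6, 12.9 and 8.62 TPM on high cholesterol. The groups did not overlap, but the test was not passed (log2 fold change 1.59, SE 0.45, adjusted p = 0.257).

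The diet effect in Gramd1c-/- mice was set against that in wild type mice, where 66 genes (0.440%) were called. These 66 included 2 adrenal cortex markers, lower on high cholesterol and not called in Gramd1c-/- mice. The 7 adrenal cortex markers summed to 576 TPM in wild type mouse 2 on low cholesterol. In the other wild type mice on low cholesterol they summed to 1.84 to 2.25 TPM. Of the 49 genes called in Gramd1c-/- mice, 41 were also called in wild type mice in the same direction, which is 83.7% of the Gramd1c-/- list and 62.1% of the wild type list. The other 8 had the same sign in wild type mice, as did in Gramd1c-/- mice the 25 genes called only in wild type mice. The difference itself was tested as the interaction of genotype and diet, and none of the 15016 genes passed (0.00%, smallest adjusted p = 0.9999). Unadjusted, the interaction p of edgeR was below 0.05 for 250 genes, fewer than the 751 that make 0.05 of the genes tested. DESeq2, voom and limma on TPM called 0 genes as well.

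**Figure D5:**
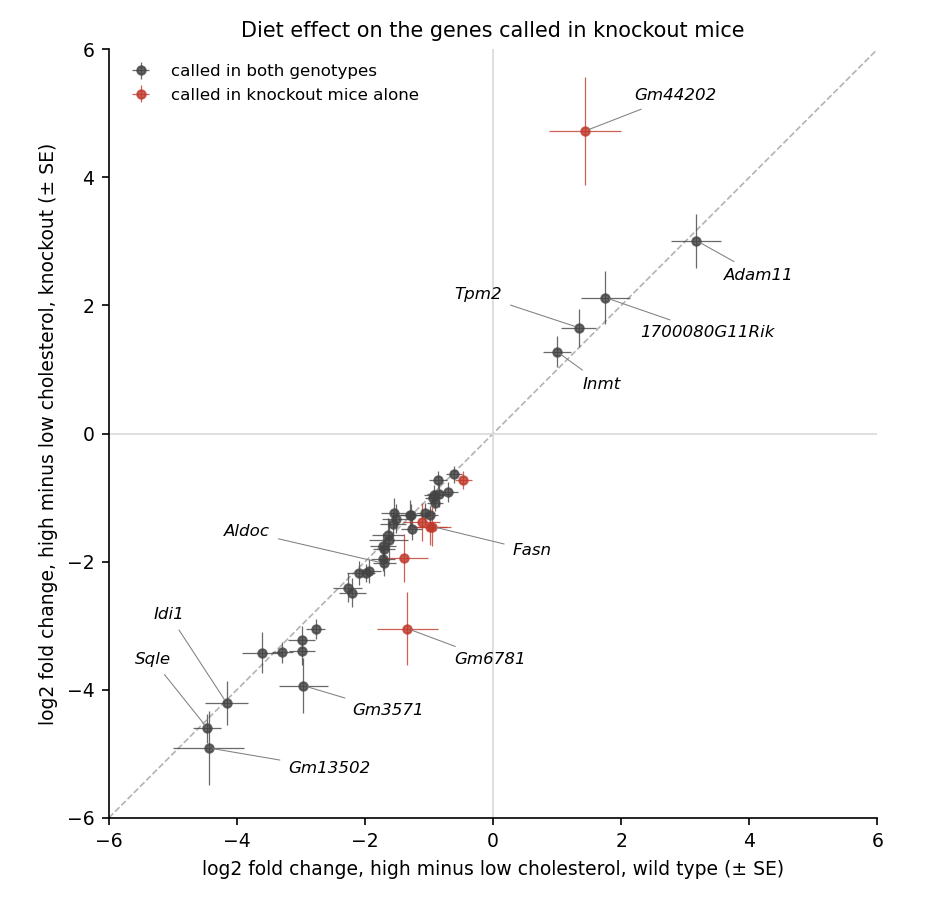
Log2 fold change by diet (high minus low cholesterol) in wild type mice (horizontal) and in Gramd1c-/- mice (vertical) for 46 of the 49 genes called in Gramd1c-/- mice, with bars of 1 SE and a dashed line of equal effects. All points have the same sign on both axes, most lie near the dashed line, and Gm44202 and Gm6781 lie farthest from it.

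In wild type mice 20 of the 23 synthesis genes fell as well, against 0.340% of all genes tested. The 23 had a median log2 fold change of -1.72 against -1.96 in Gramd1c-/- mice. For Sqle the log2 fold change was -4.46 (SE 0.22) in wild type mice and for Idi1 it was -4.16 (SE 0.34). Of the 20 called synthesis genes, 18 were farther from 0 in Gramd1c-/- mice, but their interactions ran only from -0.41 (Msmo1) to 0.18 (Mvd) with SEs of 0.16 to 0.44, and the smallest unadjusted p among them was 0.143. Genes chosen for passing in Gramd1c-/- mice tend to be farther from 0 there by that choice. Fasn, called in Gramd1c-/- mice alone, had a log2 fold change of -0.95 (SE 0.29, adjusted p = 0.323) in wild type mice and an interaction of -0.50 (SE 0.42), and Slc25a1 had one of -0.26 (SE 0.20). Abcg5 was called in wild type mice (log2 fold change 0.82, SE 0.17, adjusted p = 0.035) and not in Gramd1c-/- mice, with an interaction of -0.29 (SE 0.25). Pltp was likewise called only in wild type mice (log2 fold change -1.39, SE 0.30, adjusted p = 0.0415), with an interaction of 0.16 (SE 0.43). Adam11 rose by 3.17 on the log2 scale (SE 0.39) in wild type mice, which left an interaction of -0.16 (SE 0.53).

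Cyp3a16, not called for diet in either genotype, had a log2 fold change of -2.64 (SE 1.01) in wild type mice against 3.94 in Gramd1c-/- mice, an interaction of 6.58 (SE 1.56, unadjusted p = 4.41e-04 and adjusted p = 0.9999 by edgeR). Among called genes, 2 had an unadjusted interaction p below 0.05, Gm44202 (interaction 3.29, SE 1.11) and the pseudogene Gm6781 (interaction -1.71, SE 0.75), both with few counts.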

How the data were processed

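Poly(A)-selected liver RNA of 19 mice was sequenced as paired reads on a NovaSeq instrument. For each mouse the authors deposited a table of raw counts, not normalized, for 49315 Ensembl genes with their positions and lengths. The submitters' processing notes name STAR 2.5.2b and GRCm38, while no counting tool, strand setting or annotation release is given in the sources used here. TPM was computed from the deposited counts and gene lengths. The test was that of edgeR 4.0.16 under R 4.3.3 (TMM, filterByExpr by group with a minimum count of 10, 1 coefficient for each of the 4 groups over all 19 mice, quasi-likelihood F test, Benjamini-Hochberg over 15016 genes, called below 0.05). The contrasts were high minus low cholesterol in each genotype and their difference. The paper's methods state tests for single genes only. The total counts of 27149972 to 33961735 per knockout mouse give little counting error for all but low genes, and counting intervals cover counting error only. The biological coefficient of variation was 0.255. When tested on simulated data, it found 61% of the 2-fold changes by diet in knockout mice and 89% of the 4-fold ones.

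Mice were grouped by their titles, and p-values measure the spread between mice. The comparison, the gene lists and the markers were chosen with earlier results of these data known. Named genes were those with the smallest adjusted p (10 in each direction) and the largest fold (5 in each), every called member of the sterol, bile acid and fatty acid lists, up to 4 members of each other list with the smallest p, the 5 genes with the smallest interaction p, and Gramd1a, Gramd1b and Gramd1c. A few genes selected in this way are not reported here. Members of those lists that were not called, called genes beyond the rule and marker genes of single mice were chosen after their values were seen. Promoter sequences came from RefSeq (GRCm38.p6), positions are those of the files, and pseudogenes were aligned to GENCODE M21 transcripts with BLAST 2.17.0.

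Alternatives were DESeq2 1.42.0, RLE, TMM without Mup and mitochondrial genes, voom with sample weights and limma 3.58.1 on log2(TPM + 1). Further ones were no filter, a stricter filter (1 CPM in 4 mice), knockout mice only and the replicate number as a block. The rest were a term for the run of the numbers that head the count columns, leaving out each mouse, and a log2 fold change of at least 1. What these column numbers stand for was not established. The fits without 2 or 3 mice that stood apart were chosen after seeing the data. Other tools were Python 3.11.15, numpy 2.4.6, pandas 2.3.3, scipy 1.17.1 and matplotlib 3.10.9. Plasma, tissue lipid and protein data of the study were not analysed here.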

Additional observations from a re-analysis of the deposited data

Results flagged for a closer look

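In 19 of 186 groups of mice tested (10.2%), 1 mouse was far from the others of its group by Dixon's criterion. The criterion is set to about 1 in 20 groups by chance. These groups reuse the same 9 mice, and some genes were chosen after their values were seen, so 10.2% cannot be set against it. Mouse 3 on low cholesterol stood apart for Msmo1 (99.55 TPM), Tm7sf2 (139 TPM), Pltp (109 TPM), Cyp3a41b (2.349 TPM) and Gm44202 (0.147 TPM, which is 1 count), each time as the highest of 4. Mouse 2 on low cholesterol was the highest for Adgrf1 (10.59 TPM) and Acacb (27.91 TPM).

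On high cholesterol, mouse 5 stood apart on the first principal component (87.01) and was the highest for 1700080G11Rik (94.12 TPM), Gramd1a (8.619 TPM) and Gramd1c (3.614 TPM). Mouse 3 was the highest for the summed bile duct markers (266.8 TPM), Krt19 among them (119.7 TPM), and for Stard4 (27.74 TPM), Sgsm1 (0.7446 TPM) and Gramd1b (1.67 TPM). Mouse 4 was the highest for the summed Kupffer cell and macrophage markers (1735 TPM). Mouse 2 was the highest for Erg28 (29.94 TPM) and the lowest for the summed hepatocyte markers (7.492e+04 TPM). The part of these mice in the diet effects is given only by leaving them out.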

How the results depend on the processing

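Over 32 other settings none of the 49 called genes changed sign, 19 were called wherever they were tested, 10 were lost in 1 setting and 20 in 2 or more, and 13 synthesis genes were called in every setting. The 49 genes called became 91 with DESeq2 (26 higher and 65 lower, so that 28.6% were higher against 10.2%) and 19 with a minimum log2 fold change of 1, and leaving out single mice gave 34 (without mouse 2 on low cholesterol) to 55 (without mouse 4 on high cholesterol). The 66 genes called in wild type mice became 110 with DESeq2 and 17 with the minimum fold, and 41 to 87 without single mice. The 20 lower synthesis genes became 13 and the 7 other sterol-suppressed genes 2 with the minimum fold, and without single mice they were 19 to 20 and 5 to 7. The 4 lower genes of fatty acid synthesis became 2 without Mup and mitochondrial genes, 2 with limma on TPM and 2 with a term for the run of column numbers. Their number was 0 with the minimum fold, 1 without either set of mice that stood apart, and 1 to 4 without single mice. With only the knockout mice in the fit 4 of the 5 higher genes lost their call, all but Adam11, and 9 lower ones did (Acly, Fads1, Lbr, Adgrf1, Sgsm1, Tmco6, Gm36435, Gm43031 and Gm6781). For why DESeq2 called more genes the cause was not tested.

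The interaction called 0 genes with edgeR in every setting and with DESeq2, voom and limma, at 250, 367, 443 and 243 genes of unadjusted p below 0.05. For edgeR, 0.05 of the genes tested would be 751. Replicate numbers did not pair the mice (mean correlation 0.03 over 4 pairs with the same number and -0.004 over 16 others), and with the number as a block 36 genes were called, all 36 among the 49 and 2 of them higher (Adam11 and Gm44202), with 1 gene of fatty acid synthesis and a log2 fold change of -0.083 for Gramd1c. The uncalled change of Gramd1c was 0.15 and turned to -0.31 with voom, -0.30 and -0.32 without the mice that stood apart, and lay between -0.30 and 0.28 without single mice. Also uncalled, Cyp7a1 ranged from -0.29 to 0.50, Scd1 from -0.52 to 0.12 and Krt19 from -0.22 (without mouse 3 on high cholesterol) to 3.88 without single mice, and Krt19 was -0.19 without the 3 mice. With 4 and 5 mice, changes below 2-fold are often missed.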

Other observations

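Genes known to differ between the sexes in mouse liver did not pass the test for diet or for the interaction, but their signs leaned one way. Of 29 female-biased genes 19 had a log2 fold change above 0 in Gramd1c-/- mice (median 0.28, against -0.31 in wild type mice), and the interaction was below 0 in 2 of them. Of 25 tested male-biased genes 18 had a log2 fold change below 0 (median -0.27, against 0.11 in wild type mice), and the interaction was below 0 in 22, against 47.1% of all genes tested. Summed over the female-biased list, the 4 mice on low cholesterol had 5779, 5255, 7501 and 5912 TPM and the 5 on high cholesterol 9093, 8515, 9346, 7640 and 2844 TPM, so that mouse 5 was the lowest and the other 4 lay above all mice on low cholesterol. The male-biased list summed to 3972, 8053, 4091 and 4356 TPM on low and to 4192, 1500.0, 1857, 3801 and 9756 TPM on high cholesterol, where mouse 5 was the highest. Genes of a list share the mouse and its library, so these counts are a description and have no test. All mice were females by the study's account.

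Cxcl14, a chemokine, had a log2 fold change of -0.82 (SE 0.25, adjusted p = 0.288 by edgeR) in Gramd1c-/- mice and an interaction of -1.31 (SE 0.34). Plin4, a lipid droplet protein, was at 0.284 to 0.861 TPM on low and 1.096 to 2.96 TPM on high cholesterol without overlap, and was not called (log2 fold change 1.57, SE 0.52, adjusted p = 0.328 by edgeR). The 13 mitochondrially encoded mRNAs had a median of 0.12 in Gramd1c-/- mice and of 0.49 in wild type mice, and their interaction was below 0 in all 13, none of it past the test.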
